A study of Mus musculus with 10 samples.

Results

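The BCL2 family governs whether a cell releases cytochrome c from its mitochondria and dies by apoptosis, and 10 of its genes were followed here in regulatory T cells (Treg) of control mice and of mice with Treg-directed deletion of Tfam, whose product is the protein that packages and transcribes mitochondrial DNA. The members were taken by symbol, with no threshold on their values in the choosing rule: the pro-survival genes Bcl2, Bcl2l1 and Mcl1, the pore-forming effectors Bax and Bak1, and the BH3-only genes Bcl2l11, Bid, Bbc3, Pmaip1 and Bad. All 10 were found among the 22553 genes of the count table and all 10 passed the filter on low counts, which left 11990 genes. Sorted Treg carrying YFP, from spleen together with lymph node of female C57BL/6 littermates, gave the poly(A) RNA that was sequenced; the YFP-Cre fusion is driven by Foxp3, and the labels give no age. Control mice were Tfamfl/+Foxp3Yfp-Cre/+, so the control cells carry Cre too and can lose 1 of their Tfam copies, and knockout (KO) mice were Tfamfl/flFoxp3Yfp-Cre/+. There were 3 control and 3 KO libraries, each from cells pooled from 2 to 3 mice. Because Foxp3 lies on the X chromosome, heterozygous females keep Treg in which the Cre allele is silent, and these were not in the YFP-positive sort. The ATAC-seq libraries of the series were not analysed here.

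Pro-survival proteins hold BAX and BAK in check and sequester BH3-only proteins; when BH3-only proteins outweigh them, BAX and BAK open the outer mitochondrial membrane and cytochrome c triggers the caspases. Treg depend on IL-2 and on MCL1 for survival, and the BH3-only protein BIM (the product of Bcl2l11) is a main killer of T cells deprived of cytokine. Much of the control of the family acts on protein stability and binding, which RNA counts do not measure. Fewer surviving cells of a kind and less RNA per cell cannot be told apart in such bulk libraries.

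The libraries held between 19087757 and 27490253 counts. Levels are given as CPM, counts scaled to the size of the library, with library sizes adjusted by TMM, a correction for differences in RNA composition. Tfam itself stood at 25.9, 30.6 and 42.4 CPM in control replicates 1 to 3 and at 15.6, 14.4 and 16.5 CPM in KO replicates 1 to 3. It fell in KO (log2 fold change -1.09 ± 0.17, SE; edgeR adjusted p = 0.020), and no library went against its label. Foxp3 stood between 688 and 853 CPM in control and between 783 and 873 CPM in KO. Markers of red pulp macrophages, 7 genes all detected, summed to between 276 and 586 CPM in control and between 311 and 843 CPM in KO, and were highest in the libraries numbered 2 of both groups. The 7 B cell markers, all detected, summed to between 553 and 581 CPM in control and between 400.4 and 434 CPM in KO, most of it Ighm. The 8 myeloid and dendritic cell markers, also highest in the libraries numbered 2, summed to between 152 and 321 CPM in control and between 162 and 448 CPM in KO, and 5 erythroid markers to at most 8.65 and 13.5 CPM. The 9 Treg markers summed to between 3021 and 3396 CPM in control and between 2989 and 3317 CPM in KO, and the pair of CD8 markers to at most 19.03 CPM. The 4 neutrophil markers summed to at most 2.97 CPM and the 3 NK cell markers to at most 0.211 CPM in any library.

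Bcl2 RNA was higher in every KO library than in every control library, at 1.24 times the control level, and Bcl2l1 RNA was lower in every one, at 0.812 times. Bcl2l11, the gene of the death-promoting protein BIM, stood at 1.21 times the control level, above its same-numbered control in all 3 pairs. Mcl1 stood at 0.98 times with overlapping groups, and the effectors Bax and Bak1 at 0.937 and 0.9 times. Bcl2, Bcl2l1 and Bcl2l11 passed an edgeR test only where same-numbered libraries were compared with each other.

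None of the 10 genes passed the test of genotype alone (edgeR quasi-likelihood F test, adjusted p under 0.05 over all 11990 genes), against a background of 1.39% of tested genes called lower in KO and 0.1% called higher. At an unadjusted p under 0.05 the same test put 4 of the 10 lower (Bcl2l1, Bak1, Bid and Bad; background 7.22%) and 2 higher (Bcl2 and Bcl2l11; background 5.4%). The labels do not say what a replicate number marks. The numbers were taken to pair the libraries from a check in these data, given with its limits in the methods. The comparison was therefore also fitted with the number as a block. There Bcl2 and Bcl2l11 were called higher (2 of 10, background 1.97%) and Bcl2l1 lower (1 of 10, background 4.39%). DESeq2 without the block called Bcl2 higher (1 of 10, background 0.634%) and Bcl2l1 lower (1 of 10, background 2.19%), and with the block Bcl2 alone (1 of 10 higher, background 1.17%; 0 of 10 lower, background 2.55%). limma-voom called 0 of 10 lower (background 1.13%) and 0 higher (background 0.025%). At an unadjusted p under 0.05, limma-voom put 4 lower (background 6.97%) and 2 higher (5.52%), and DESeq2 put 3 lower (6.04%) and 2 higher (5.28%). The fitted fold changes of the 10 genes lay between 1.02-fold (Mcl1) and 1.39-fold (Pmaip1), and the median log2 fold change was -0.12, beside -0.0045 over all tested genes.

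**Figure D1:**
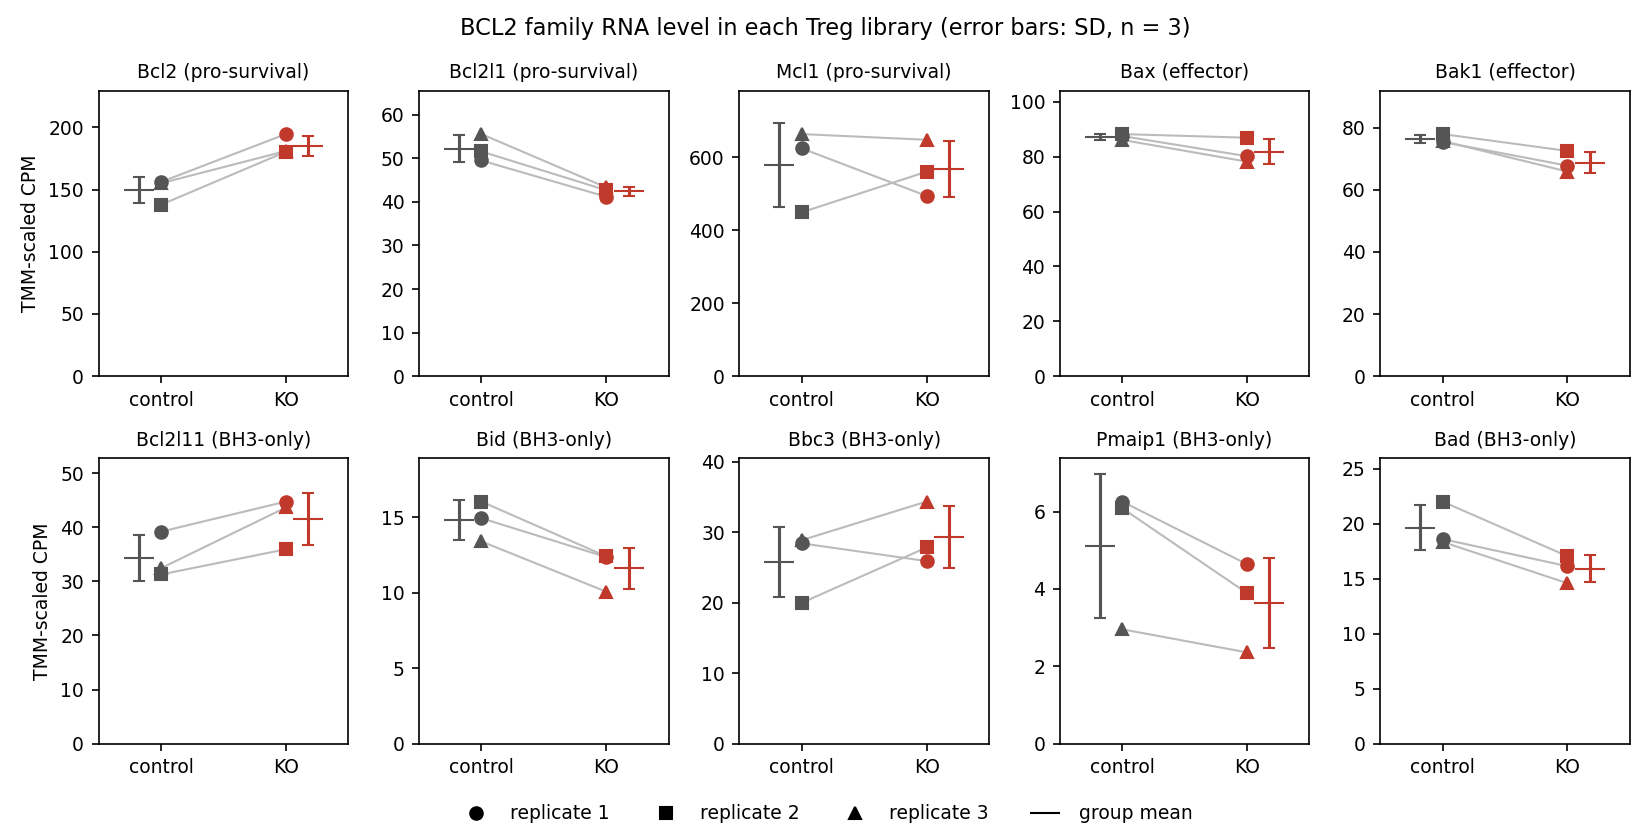
RNA level of each of the 10 genes (vertical axis, TMM-scaled CPM, from 0) in the 3 control (grey) and 3 KO (red) libraries, with lines joining libraries of the same number and bars giving mean ± SD. The KO points lie above all control points for Bcl2 and below all of them for Bcl2l1, Bak1, Bid and Bad, whereas the groups overlap for Mcl1, Bax, Bcl2l11, Bbc3 and Pmaip1.

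The promoter sequences of the 3 genes called with the block are shown because they were called in different directions and because textbook regulators of the family, FOXO factors for Bcl2l11 and STAT5 for Bcl2l1, act through short DNA motifs. Each line gives the 250 bases before the most upstream RefSeq start (GRCm38.p6), 5′ to 3′ on the gene's strand, with capitals marking the letters GTAAACA (a FOXO motif) and GGGCGG (the GC box) on either strand. The windows are chr1:106714291-106714540 (minus strand) for Bcl2, chr2:152831729-152831978 (minus strand) for Bcl2l1 and chr2:128125788-128126037 (plus strand) for Bcl2l11.
Bcl2: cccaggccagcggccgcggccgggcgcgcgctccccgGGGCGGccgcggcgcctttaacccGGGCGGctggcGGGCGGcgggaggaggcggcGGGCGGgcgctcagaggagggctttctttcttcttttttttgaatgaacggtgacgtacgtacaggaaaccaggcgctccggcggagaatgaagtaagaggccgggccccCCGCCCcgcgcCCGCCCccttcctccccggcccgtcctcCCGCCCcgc
Bcl2l1: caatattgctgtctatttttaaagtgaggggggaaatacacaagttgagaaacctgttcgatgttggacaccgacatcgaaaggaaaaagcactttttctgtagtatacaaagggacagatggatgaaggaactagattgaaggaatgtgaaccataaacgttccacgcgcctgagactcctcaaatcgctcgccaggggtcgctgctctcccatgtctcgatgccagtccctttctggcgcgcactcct
Bcl2l11: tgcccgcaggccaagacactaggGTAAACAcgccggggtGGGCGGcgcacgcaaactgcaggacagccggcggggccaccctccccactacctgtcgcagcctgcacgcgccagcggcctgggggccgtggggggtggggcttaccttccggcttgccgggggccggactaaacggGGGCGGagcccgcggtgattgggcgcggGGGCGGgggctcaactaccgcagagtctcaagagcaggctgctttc
The Bcl2 window held 7 GC boxes and a GC content of 74.8%, and the Bcl2l11 window 3 GC boxes, 72% GC and 1 FOXO motif, 227 bases before the start and not overlapping a GC box. The Bcl2l1 window, at 47.6% GC, held neither, and TTCNNNGAA, the STAT motif, was in none of the 3. Among the other members, the windows of Bid and Bad, both lower in KO, also held 3 GC boxes each (63.6% and 62.8% GC). The Bbc3 window held 5 GC boxes, Bax 2, Mcl1 1 and Bak1 0, and none of these windows held the FOXO or STAT letters. A link between motifs and direction was not tested. Among the 27025 promoter windows of the same length in the RefSeq table, 3.06% held the FOXO letters, 33% the GC box and 7.14% the STAT letters, and the median GC content was 52%. RefSeq lists 3 start regions for Bcl2l1 and 2 for Bcl2l11, and the counts do not tell which was used. These matches describe letters in a window, not bound sites.

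Among the pro-survival genes, Bcl2 (ENSMUSG00000057329), the founding member of the family, stood at 156, 138 and 155 CPM in control replicates 1 to 3 and at 195, 180.4 and 181 CPM in KO replicates 1 to 3. Every KO library was above every control library. The mean was 149.7 ± 10.28 CPM in control and 185 ± 8.06 CPM in KO (SD, n = 3 each), a ratio of 1.24 with a 95% interval of 1.10 to 1.39. The log2 fold change was 0.31 ± 0.07 (SE; edgeR adjusted p = 0.102 for genotype alone and 0.00837 with the block; DESeq2 adjusted p = 0.00596 and 0.0015). Within same-numbered libraries the log2 difference was 0.32, 0.39 and 0.22. With the block and 1 pair left out at a time it was called without pair 1 (adjusted p = 0.0409) and without pair 3 (0.0103) but not without pair 2 (0.0546).

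Bcl2l1 (ENSMUSG00000007659), which encodes the pro-survival protein BCL-XL, went the other way. It stood at 49.5, 51.6 and 55.6 CPM in control and at 41.2, 42.7 and 43.3 CPM in KO, and the highest KO library was below the lowest control library. The ratio of KO to control was 0.812 (95% interval 0.726 to 0.908), a log2 fold change of -0.30 ± 0.07 (edgeR adjusted p = 0.103, or 0.0127 with the block; DESeq2 0.0483, or 0.0725 with the block). The 3 same-numbered differences were -0.27, -0.27 and -0.36. With the block its call held without pair 2 (adjusted p = 0.0239) and was lost without pair 1 (0.0555) or pair 3 (0.0749). The RefSeq span of the gene overlaps Cox4i2, which had between 3 and 5 counts in every library.

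Mcl1 (ENSMUSG00000038612), encoding a short-lived pro-survival protein that Treg require, showed no common direction. It stood at 625, 449 and 664 CPM in control and at 494, 561 and 648 CPM in KO, and the groups overlapped over most of their range. Within same-numbered libraries it was lower in KO in pair 1 (-0.34), higher in pair 2 (0.32) and close to equal in pair 3 (-0.03). The log2 fold change was -0.03 ± 0.15 (edgeR adjusted p = 0.961). The 95% interval of the KO to control ratio ran from 0.77 to 1.25, so changes within that range were not excluded. Its coefficient of variation was 19.7% among control and 13.6% among KO libraries, against 6.87% and 4.35% for Bcl2.

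**Figure D2:**
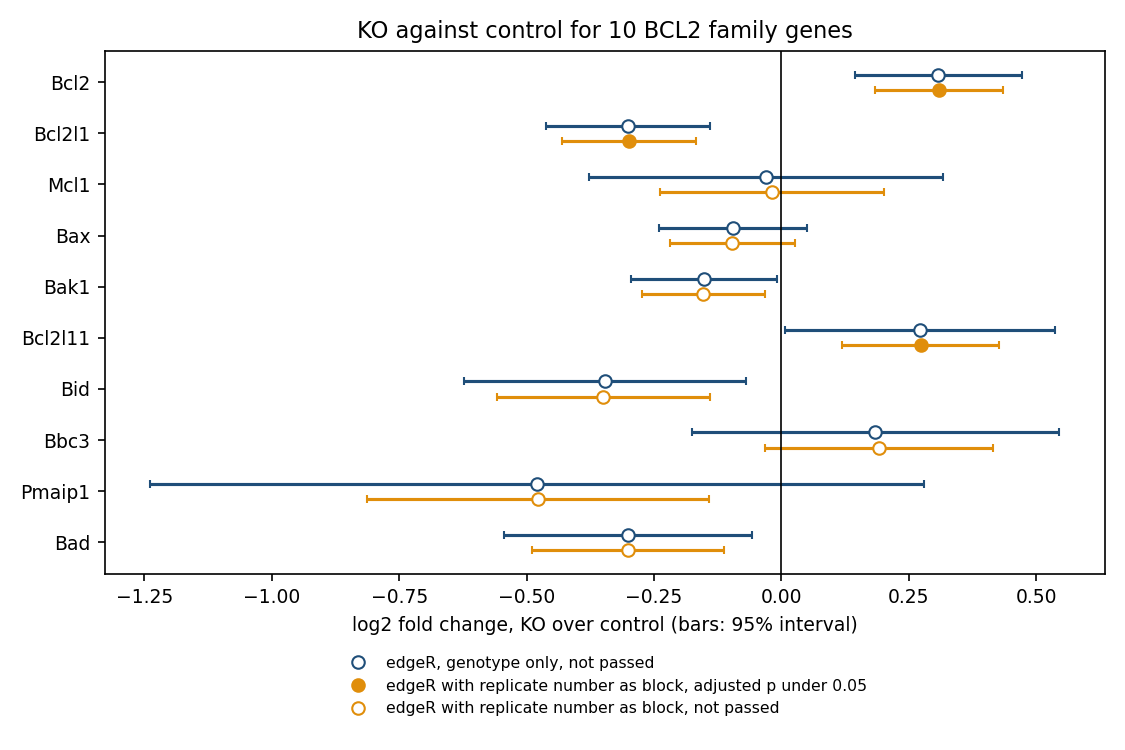
Log2 fold change of KO over control (horizontal axis) with its 95% interval for each of the 10 genes, from edgeR with genotype alone (blue) and with the replicate number as a block (orange), filled where the adjusted p is under 0.05. The 3 filled points are Bcl2 (0.31), Bcl2l1 (-0.30) and Bcl2l11 (0.27), all with the block, and the intervals of Mcl1, Bax and Bbc3 cross 0 in both fits.

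The effectors had the smallest spread between control libraries. Bax (ENSMUSG00000003873), whose protein moves to mitochondria when activated, stood at 87.5, 88.3 and 86.1 CPM in control and at 80.2, 86.9 and 78.2 CPM in KO, with KO replicate 2 above control replicate 3. Its log2 fold change was -0.09 ± 0.06 (adjusted p = 0.589, or 0.338 with the block), with a 95% interval of -0.24 to 0.05. Bak1 (ENSMUSG00000057789), whose protein BAK sits in the outer membrane, stood at 75.4, 77.9 and 75.7 CPM in control and at 67.7, 72.5 and 65.8 CPM in KO. The Bak1 groups did not overlap, at a log2 fold change of -0.15 ± 0.06 (adjusted p = 0.369, or 0.127 with the block). Both effectors were below their same-numbered control in all 3 pairs, and neither was called by edgeR, DESeq2 or limma-voom, with or without the block in the first pair of tools. The coefficient of variation among control libraries was 1.23% for Bax and 1.81% for Bak1. The span of Bak1 overlaps Ggnbp1, at between 1.84 and 3.16 CPM.

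Among the BH3-only genes, Bcl2l11 (ENSMUSG00000027381) stood at 39.2, 31.3 and 32.4 CPM in control and at 44.7, 35.9 and 43.6 CPM in KO. KO replicate 2 lay below control replicate 1, so the groups overlapped, but each KO library was above the control of its number, by 0.19, 0.20 and 0.43 on the log2 scale. The ratio of KO to control was 1.21 (95% interval 1.01 to 1.45). The log2 fold change of 0.27 ± 0.12 was not called for genotype alone (edgeR adjusted p = 0.377) and was called higher with the block (0.27 ± 0.07, adjusted p = 0.0421). DESeq2 with the block did not call it (adjusted p = 0.172), and the edgeR call with the block held without pair 2 (0.0412) and was lost without pair 1 (0.0736) or pair 3 (0.201). The span overlaps Acoxl, at between 1.20 and 2.00 CPM. How reads of the shared stretch were assigned is not known, since the strand setting is not given.

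Bid (ENSMUSG00000004446), whose protein is cut by caspase-8 and links death receptors to mitochondria, stood at 14.9, 16.04 and 13.4 CPM in control and at 12.4, 12.4 and 10.07 CPM in KO, with no overlap. Its ratio was 0.787 (95% interval 0.65 to 0.953) and its log2 fold change -0.35 ± 0.12 (adjusted p = 0.285, or 0.0523 with the block). Bad (ENSMUSG00000024959), whose protein is held inactive by growth factor signalling, stood at 18.6, 22.0 and 18.3 CPM in control and at 16.1, 17.03 and 14.6 CPM in KO, also without overlap. Its log2 fold change was -0.30 ± 0.11 (adjusted p = 0.289, or 0.0623 with the block). Bid and Bad were lower than their same-numbered control in all 3 pairs and passed no adjusted test. Bad spans part of Gpr137, which stood between 14.3 and 17.2 CPM with a log2 fold change of 0.01 ± 0.10. If the counting ignored strand, reads of their shared stretch cannot be told apart.

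Bbc3 (ENSMUSG00000002083), encoding PUMA, and Pmaip1 (ENSMUSG00000024521), encoding NOXA, are p53 targets, and NOXA binds MCL1 in particular. Bbc3 stood at 28.4, 19.995 and 28.9 CPM in control and at 25.9, 27.8 and 34.4 CPM in KO, with overlapping groups and a log2 fold change of 0.18 ± 0.16 (adjusted p = 0.68, or 0.295 with the block). Its pairs disagreed, at -0.13, 0.48 and 0.25. Pmaip1 had the fewest counts of the 10 genes, between 45 and 163 in a library, and stood at 6.26, 6.09 and 2.96 CPM in control and at 4.64, 3.89 and 2.36 CPM in KO. It was lowest in replicate 3 of both groups, and the log2 differences within pairs were -0.43, -0.65 and -0.33. Its log2 fold change was -0.48 ± 0.33 for genotype alone (adjusted p = 0.599) and -0.48 ± 0.15 with the block (adjusted p = 0.0894), passing neither. The 95% interval of its ratio, 0.424 to 1.21 for genotype alone, was the widest of the 10.

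**Figure D3:**
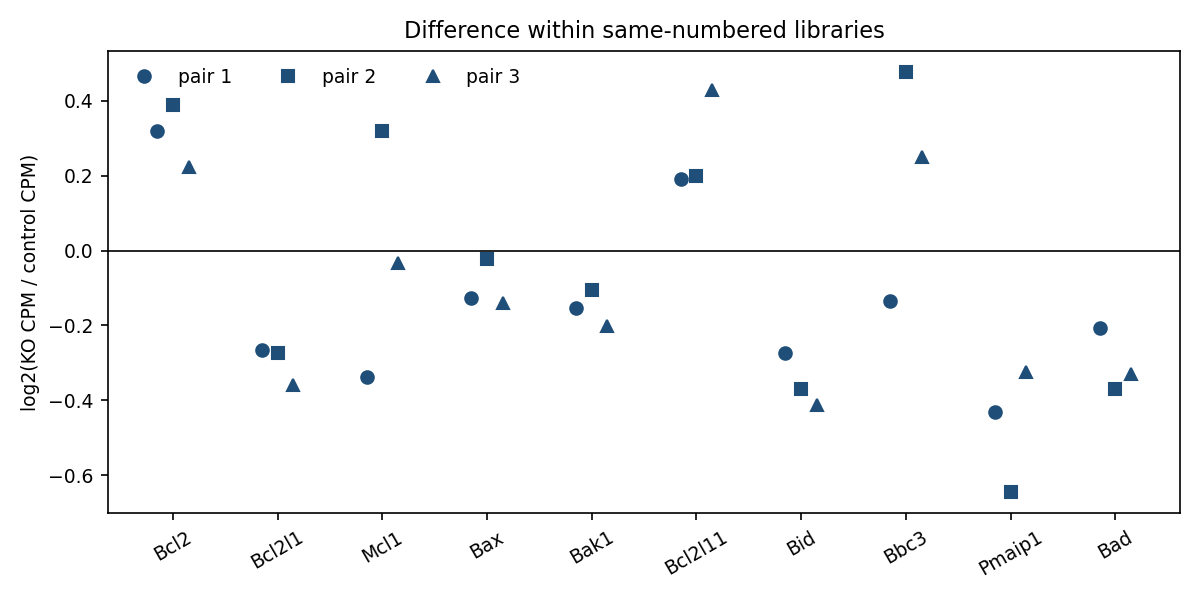
Log2 ratio of KO to control CPM (vertical axis) within each pair of same-numbered libraries (circle, square and triangle for pairs 1, 2 and 3) for the 10 genes. All 3 points lie above 0 for Bcl2 and Bcl2l11 and below 0 for Bcl2l1, Bax, Bak1, Bid, Pmaip1 and Bad, while Mcl1 and Bbc3 have points on both sides.

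Counted by groups, 4 of the 10 genes had all KO libraries below all control libraries and 1 had them above, beside 10.4% and 8.63% of all tested genes. Counted by pairs, 6 of the 10 were lower in KO in all 3 pairs and 2 were higher, beside 23.7% and 21.6% of tested genes. The 10 genes were chosen with earlier results of these data known, so these shares describe them and are no test. Without both libraries numbered 2, which had the highest macrophage marker sums, the log2 fold changes were 0.27 for Bcl2, -0.32 for Bcl2l1 and 0.30 for Bcl2l11, close to those with all libraries, with edgeR adjusted p of 0.497, 0.497 and 0.599 in the 4 libraries left. The B cell marker sum, lower in KO, moved with genotype, and its part in these results was not tested.

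Ratios of counts between 2 genes of the same library do not depend on how libraries are scaled. The ratio of Bcl2 to Bcl2l11, a pro-survival gene and a BH3-only gene, was 3.99, 4.41 and 4.78 in control and 4.35, 5.02 and 4.15 in KO. The groups overlapped and the mean log2 ratio was 2.13 ± 0.13 in control and 2.17 ± 0.14 in KO (SD, n = 3 each). The ratio of Bcl2l1 to Bcl2l11 was 1.26, 1.65 and 1.71 in control and 0.921, 1.19 and 0.993 in KO, so that every KO library lay below every control library, with a mean log2 difference of -0.57. The ratio of Bcl2 to Bax was 1.78, 1.56 and 1.80 in control and 2.43, 2.08 and 2.31 in KO, again without overlap, with a mean log2 difference of 0.41.

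The ratios with Mcl1 had wider spreads. Mcl1 to Bcl2l11 was 15.9, 14.4 and 20.5 in control and 11.05, 15.6 and 14.9 in KO, with overlapping groups. Mcl1 to Pmaip1 ran from 73.8 to 224 in control and from 106 to 275 in KO, and was highest in replicate 3 of both groups. The ratio of Bcl2 to Bcl2l1, added after the values were seen, was 3.15, 2.67 and 2.79 in control and 4.73, 4.23 and 4.18 in KO, 1.53-fold higher on average, with pair differences of 0.58, 0.66 and 0.58 on the log2 scale. Because Bcl2 was higher and Bcl2l1 lower in every KO library, the groups had to separate in this ratio, which adds no further observation. The transcripts differ in length, so only the change of a ratio between libraries can be read, not its size, and no test was made on ratios.

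**Figure D4:**
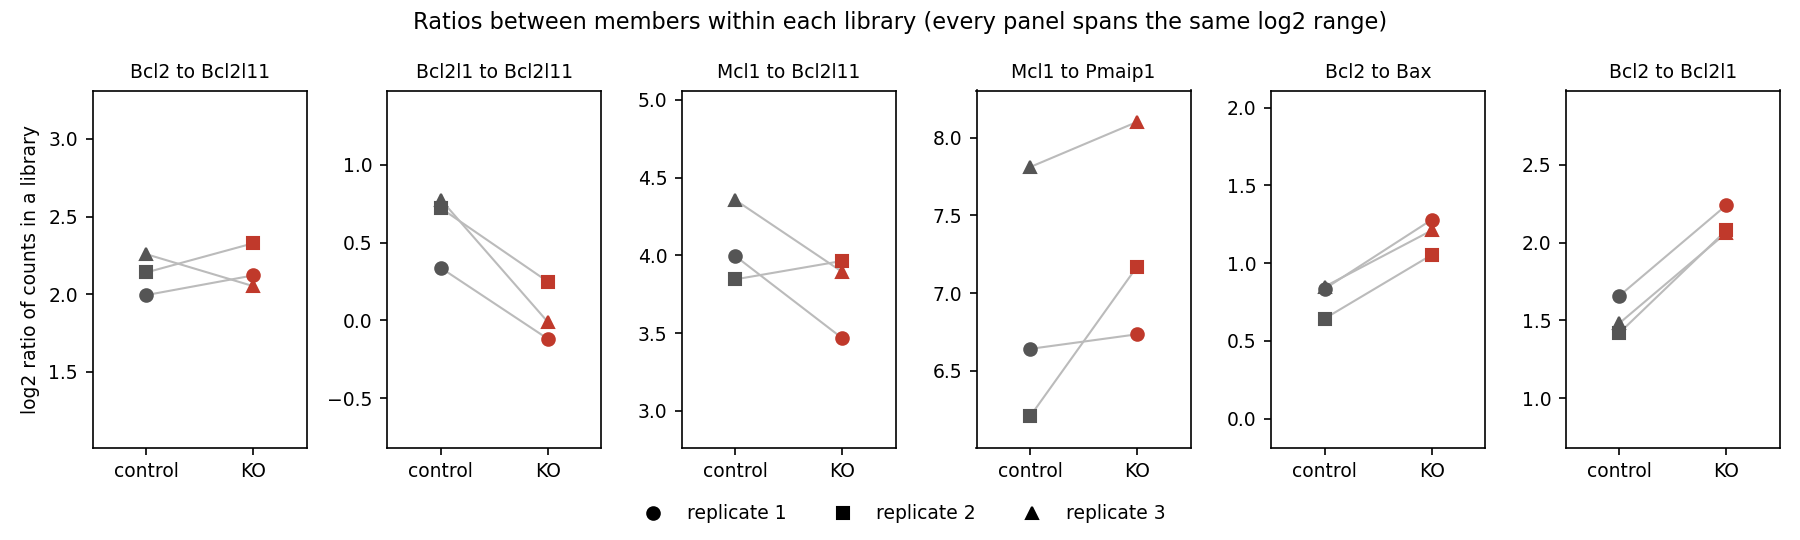
Log2 ratio of the counts of 2 genes (vertical axis, each panel spanning the same number of log2 units) in the 3 control (grey) and 3 KO (red) libraries, with lines joining same-numbered libraries. The groups separate for Bcl2l1 to Bcl2l11 (mean difference -0.57), Bcl2 to Bax (0.41) and Bcl2 to Bcl2l1 (0.61) and overlap for Bcl2 to Bcl2l11, Mcl1 to Bcl2l11 and Mcl1 to Pmaip1. For Bcl2 to Bcl2l1 the separation follows from the levels of the 2 genes.

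Around these 10 genes stand lists of their partners and regulators, 144 tested genes in all. Their counts read against the shares of all tested genes given for the 10: 1.39% lower and 0.1% higher for genotype alone, 7.22% and 5.4% at an unadjusted p under 0.05, 4.39% and 1.97% with the block, and 2.19% and 0.634% with DESeq2. In the lists limma-voom called only Naip2 and Tnfrsf1b. Of 15 further BCL2 family genes, 10 were tested, 0 were called for genotype alone (3 lower and 1 higher at an unadjusted p under 0.05, and 0 with DESeq2), and the median log2 fold change was -0.09. Bcl2a1b, a copy of the NF-kB-induced pro-survival gene A1, stood at 3.50, 5.36 and 5.62 CPM in control and at 2.87, 3.26 and 2.94 CPM in KO. It was called lower with the block in edgeR (log2 fold change -0.65, adjusted p = 0.0484) but not in DESeq2 with the block (0.27). The copy Bcl2a1d was not called with the block (log2 fold change -0.59 ± 0.21, adjusted p = 0.0679), and Bcl2a1a, untested, had 5, 7 and 9 counts in control and 9, 13 and 10 in KO. The A1 copies are near-identical, so counts assigned to any of them are uncertain. Hrk and Bcl2l10 had 0 counts in all 6 libraries, and Bok between 0 and 2.

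Downstream of mitochondria, 15 genes of the apoptosome, the caspases and the proteins released with cytochrome c were tested, 0 were called for genotype alone (1 lower and 0 higher at an unadjusted p under 0.05), and the median was -0.04. Apaf1, the scaffold of the apoptosome, had a log2 fold change of -0.08 ± 0.08 and Casp9, its initiator caspase, of -0.14 ± 0.12.

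Of 8 genes of the IAP family, named for its caspase inhibitors, Naip2 fell in the test of genotype alone (1 of 8; 0 rose; 7 did not pass), and Naip5, Naip6 and Birc5 were also called lower with the block. DESeq2 without the block called Naip2, Naip5 (adjusted p = 0.00037) and Naip6 (0.0483) lower. For Naip6 the call was lost in DESeq2 with the block (0.0504) and in edgeR with the block without pair 1 (0.153). Naip2 stood at 16.2, 22.3 and 20.3 CPM in control and at 9.37, 10.7 and 9.91 CPM in KO, a log2 fold change of -0.97 ± 0.13 (adjusted p = 0.0112, or 0.000131 with the block). Leaving out KO replicate 1 (adjusted p = 0.0782), KO replicate 3 (0.0584) or the libraries numbered 2 of both groups (0.0748) ended the call for genotype alone. Naip5 and Birc5 had log2 fold changes of -1.11 ± 0.22 and -1.03 ± 0.50 (edgeR adjusted p = 0.0547 and 0.448, or 0.000198 and 0.00487 with the block). NAIP proteins are known as sensors of bacterial proteins in inflammasomes and the Naip genes are close copies of each other, so their separate counts are uncertain; Birc5 encodes survivin, which works mainly in mitosis. The caspase inhibitor Xiap had a log2 fold change of 0.13 ± 0.11 and Birc2 of 0.07 ± 0.07. The median of the 8 was -0.36.

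In the list of 17 death receptor and necroptosis genes the median was -0.08, and 16 genes did not pass. Tnfrsf1b fell (1 of 17) and 0 rose, Tnfrsf1b encoding TNFR2, a TNF receptor that costimulates Treg and lacks a death domain. It stood at 155.2, 167.5 and 143.7 CPM in control and at 115.9, 110.5 and 101.5 CPM in KO, a log2 fold change of -0.51 ± 0.08 (adjusted p = 0.020, or 0.000282 with the block). The call for genotype alone held without control replicate 3 (adjusted p = 0.0168). Dropping control replicate 1 gave 0.0776 and dropping control replicate 2 gave 0.078. Dropping a KO library gave 0.0949 (replicate 1), 0.0972 (replicate 2) and 0.0894 (replicate 3), so the call was lost in all 5 of these cases. Without the libraries numbered 2 of both groups it was 0.198. Mlkl, the pore former of necroptosis, was at 2.61, 2.32 and 1.97 CPM in control and 1.055, 1.022 and 0.997 CPM in KO (log2 fold change -1.16 ± 0.23; edgeR adjusted p = 0.0506, or 0.011 with the block; DESeq2 with the block 0.128). The death receptor Fas (0.02 ± 0.10), its signalling caspase Casp8 (0.09 ± 0.08) and the inhibitor Cflar (0.11 ± 0.11) did not pass.

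Upstream of the family edgeR called no list gene for genotype alone. Of 18 tested genes of p53 and its targets, 0 were called for genotype alone (1 lower and 1 higher at an unadjusted p under 0.05, 0 with DESeq2; median 0.03), while with the block Mdm4, an inhibitor of p53, was higher (log2 fold change 0.32 ± 0.10; adjusted p = 0.248, or 0.0393 with the block) and Plk2 lower (-0.29 ± 0.41; 0.818, or 0.0427 with the block). Trp53 had a log2 fold change of 0.09 ± 0.08 and Mdm2, a standard p53 target, of 0.05 ± 0.06. Of 20 genes of IL-2 receptor and STAT5 signalling, 0 were called with edgeR with or without the block, 1 lower and 1 higher had an unadjusted p under 0.05, and the median was 0.0023. Il2rb and Jak1, those with the highest CPM, had log2 fold changes of 0.05 ± 0.09 and 0.07 ± 0.09. DESeq2 called Pik3cd, a kinase catalytic subunit, higher (adjusted p = 0.0377 without and 0.0479 with the block; edgeR log2 fold change 0.19 ± 0.07, adjusted p = 0.274).

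Of 20 transcription factors and other regulators of the family's expression, 0 were called for genotype alone (2 lower and 2 higher at an unadjusted p under 0.05; median 0.02). DESeq2 without the block called Hif1a lower (adjusted p = 0.0091) and Satb1 higher (0.0483). With the block Hif1a (log2 fold change -0.34 ± 0.08; adjusted p = 0.106, or 0.00728 with the block) and Runx3 (-0.35 ± 0.09; 0.15, or 0.00825) were lower and Satb1 (0.28 ± 0.09; 0.244, or 0.0258) was higher. Foxo1 and Foxo3, activators of Bcl2l11, had log2 fold changes of 0.0034 ± 0.08 and 0.06 ± 0.09, with 95% intervals of -0.17 to 0.18 and -0.14 to 0.27. Of 18 genes that set MCL1 and BIM protein stability, 0 were called for genotype alone (0 at an unadjusted p under 0.05 and 0 with DESeq2; median -0.04) and Dusp6, a phosphatase of ERK, was lower with the block (-0.30 ± 0.15; 0.452, or 0.022). Of 19 outer membrane and cristae genes, 0 were called for genotype alone (2 lower at an unadjusted p under 0.05, 0 with DESeq2; median -0.06) and Tspo, a cholesterol-binding outer membrane protein, was lower with the block (-0.35 ± 0.12; 0.268, or 0.00674). Of Plk2, Dusp6, Mdm4 and Tspo, DESeq2 with the block called Mdm4 (adjusted p = 0.0279) and Tspo (0.00243). With the block and without pair 1, edgeR's adjusted p was above 0.05 for Mlkl (0.0866), Plk2 (0.18), Hif1a (0.0672), Runx3 (0.0786), Satb1 (0.0794) and Bcl2a1b (0.0525), so those calls were lost. Without pair 3 the calls of Mdm4 (0.134), Dusp6 (0.116), Plk2 (0.161), Runx3 (0.0536) and Bcl2a1b (0.266) were lost, and without pair 2 those of Satb1 (0.158) and Bcl2a1b (0.0918). Tspo, Naip5 and Birc5 were called with each pair left out.

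**Figure D5:**
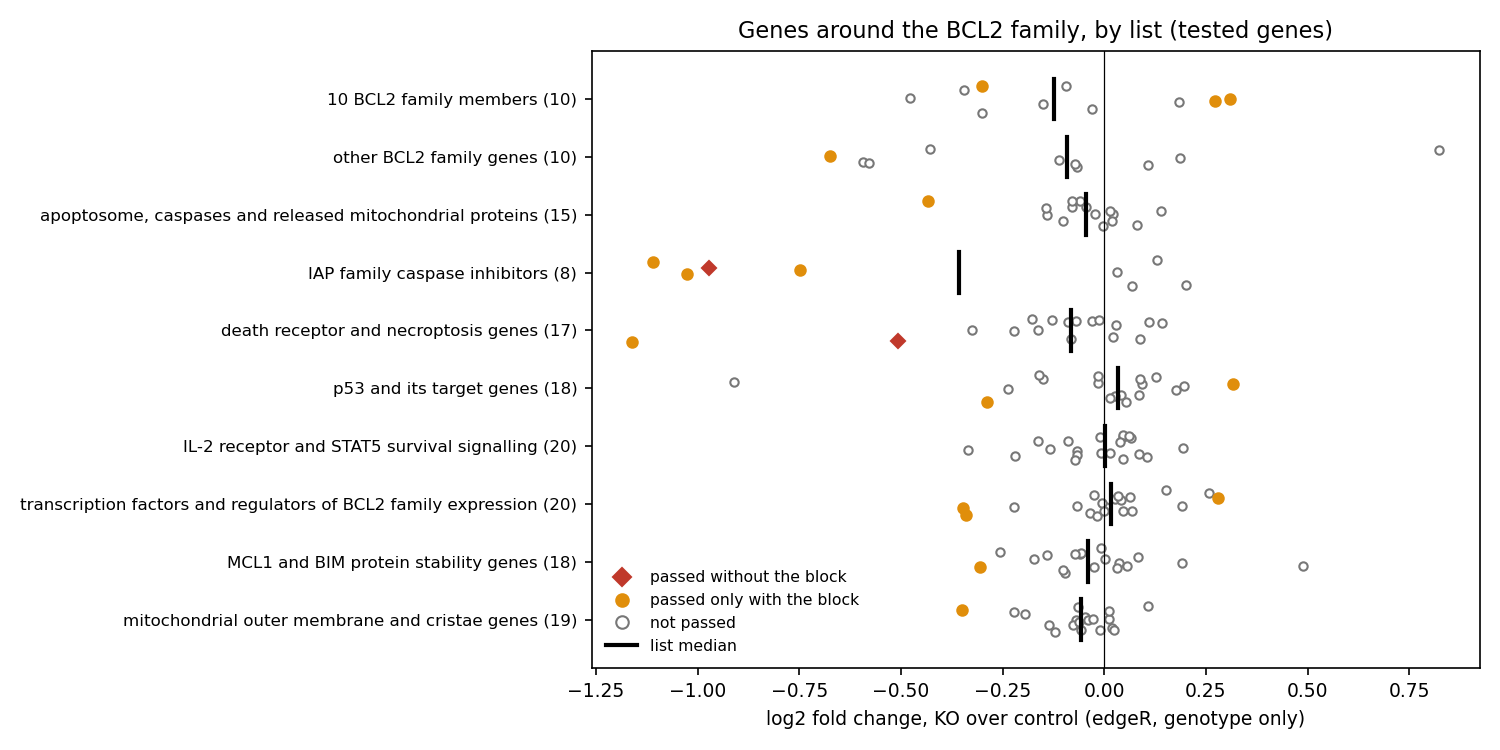
Log2 fold change of KO over control (horizontal axis, edgeR with genotype alone) for the tested genes of each list, with black bars at the list medians, red diamonds for genes called without the block and orange circles for those called only with it. The red diamonds are Naip2 (-0.97) and Tnfrsf1b (-0.51), and none of the 10 BCL2 family genes in the top line is red.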

How the data were processed

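Read counts per Ensembl gene for 6 RNA libraries were deposited by the authors as 1 table, described as HTSeq counts per the labels. Without saying which served the RNA, the submitters' processing notes list bedtools, SAMtools, Bowtie2, DESeq2, Cufflinks and HISAT2, and both mm9 and mm10. Annotation and strand setting: not given in the sources used here. The protocol, per the labels, used DNase treatment, poly(A) selection and the NEBNext Ultra II RNA kit. Of 22553 gene IDs, 22522 matched a symbol. The tests used edgeR 4.0.16 under R 4.3.3: filterByExpr (minimum count 10, minimum total 15), TMM factors, quasi-likelihood F test on all 6 libraries, Benjamini-Hochberg adjustment over 11990 genes, calls at 0.05. SE and 95% intervals came from the F statistic. DESeq2 1.42.0 and limma-voom (limma 3.58.1), other scaling, no filter, each library left out and the replicate block were alternatives.

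Deviations from the group mean correlated at 0.3, 0.584 and 0.537 between same-numbered control and KO libraries and at most at 0.0213 between others. Such deviations cancel within a group, so positive same-number values push the others down, and the low values between others add little. On the same-number values, the numbers were taken to pair the libraries. The pairing comes from the data, since the labels do not say what a number marks. Both libraries numbered 2 also had the highest macrophage marker sums, and the part of this in the correlations was not tested. The p-values for genotype alone measure the spread between pools, and those with the block the spread left within pairs. Either may be partly technical. Libraries of a group differed beyond sampling noise (chi-square per degree of freedom 9.28 to 30.4). On simulated counts for this comparison (11990 genes, 5 runs, 200 genes changed), 55.5% of genes changed 1.5-fold, 78.8% at 2-fold and 93.3% at 4-fold were called; smaller changes were not simulated.

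The 10 genes and the lists were chosen with earlier results of these data known. All 10 are named; in each list, up to 4 genes called for genotype alone, then up to 2 called with the block, or else the 2 most abundant. Bcl2a1a, Bcl2a1d, Hrk, Bcl2l10, Bok, Naip6, Xiap, Birc2, Apaf1, Casp9, Fas, Casp8, Cflar, Trp53, Mdm2, Pik3cd, Satb1, Foxo1 and Foxo3 were named after their values were seen. Of the gene IDs of Ddit3, that with more counts was used. Promoter windows, from RefSeq (GRCm38.p6), were drawn for 9 of the 10 genes and not for Pmaip1. The result for 1 list gene is not reported here.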

Additional observations from a re-analysis of the deposited data

How the results depend on the processing

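Over 17 alternatives for each of the 10 genes, 156 of 170 values kept their direction and their side of the threshold, 10 passed it in the same direction and 4 changed sign, all 4 of Mcl1. Mcl1 lay between -0.18 and 0.080 with 1 library left out and at 0.15 with the replicate block and without pair 1. The number of the 10 genes called was 0 lower and 0 higher for genotype alone and with each library left out. It was 1 lower and 1 higher with DESeq2, 1 and 2 with the replicate block in edgeR, and 0 and 1 with the block in DESeq2. With the block and without pair 1, 2 or 3 it was 0, 1 (Bcl2l1) and 0 lower and 1 (Bcl2), 1 (Bcl2l11) and 1 (Bcl2) higher. Under limma-voom, other scaling, no filter and without both libraries numbered 2 it was 0 and 0. The block changed no other call among the 10 genes. Of the 144 tested list genes, 2 were called lower and 0 higher for genotype alone (1.39% and 0.1% of all tested genes). The numbers were 6 and 2 with DESeq2 (2.19% and 0.634% of all tested genes), 13 and 2 with the replicate block (4.39% and 1.97%), 8 and 3 with the block in DESeq2 (2.55% and 1.17%), 0 and 0 without both libraries numbered 2, and between 0 and 3 lower with 1 library left out. With the block and without pair 1, 2 or 3 they were 7, 14 and 8 lower and 1, 2 and 1 higher. For fits with libraries left out, other scaling or no filter, the share of all tested genes was not computed. Counts from those fits, for the list genes and for the 10, therefore cannot be read against a background. Leaving out both libraries numbered 2 and leaving out pairs were chosen after seeing the data; the cause of these shifts was not tested. Other scaling moved the median of all genes by at most 0.0125 as an absolute log2 shift (-0.0125 with library totals). In the shallowest library, KO replicate 3, 3 counts equal 0.157 CPM, and Pmaip1, with the fewest counts of the 10 genes, stood at 2.36 CPM there. Intervals for genotype alone cover the spread between libraries of a group, and those with the block only the spread left within pairs.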
